A study of Mus musculus with 6 samples.

Results

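The genes described here encode the replication-dependent histones that lie in gene clusters. They were taken as every protein-coding mouse gene whose symbol begins with Hist1h, Hist2h, Hist3h or Hist4h in the GENCODE M21 annotation, matched to the deposited table by Ensembl identifier, and 67 of its 56691 identifiers met this rule. Of these, 54 lie in the Hist1 cluster on chromosome 13, 10 in Hist2 on chromosome 3, 2 in Hist3 on chromosome 11 and 1 in Hist4 on chromosome 6. By product, 6 encode the linker histone H1, 18 encode H2A, 18 encode H2B, 12 encode H3 and 13 encode H4.

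The study measured RNA in 3 libraries of circulating tumour micro-emboli (CTM), which are clusters of tumour cells caught from the blood of mice carrying breast tumours and lung metastases, and in 3 control libraries of the 4T1 cell line. 4T1 is a mouse mammary carcinoma line that spreads to the lung when implanted. Its libraries are titled as low adherence culture, and the growth conditions given are DMEM with fetal bovine serum and antibiotics. CTM were recovered with a microfluidic device, the Cluster-chip. No treatment or engineered allele is given for either group, and for the mice the strain, age and number are not stated in the labels. Growth in a mouse, passage through blood and the capture step all separate CTM from 4T1 cells, so their parts in any difference cannot be told apart. Nothing in the labels ties the libraries of a group to separate mice or cultures. The p-values therefore reflect how far these libraries spread, and that spread may be technical.

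Histones package DNA. An octamer of H2A, H2B, H3 and H4 forms the nucleosome core, and H1 binds the linker DNA between cores. The clustered genes are transcribed mainly in S phase, when new DNA is packaged, and their mRNAs typically end in a short stem-loop, bound by the protein SLBP, in place of a poly(A) tail. Some of them also make polyadenylated mRNA, in particular in cells that have stopped dividing. RNA was amplified with a SMART-Seq ultra low input kit, a chemistry that primes from the poly(A) tail, so mRNA that ends at the stem-loop is poorly captured. The part of this in the levels below was not tested.

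The stem-loop was looked for on the transcript strand of each annotated M21 transcript as GGNNNTTTTNANNNCC in which bases 1 to 6 pair with bases 11 to 16. It was found in 44 of the 67 genes, and in 55 of 21866 protein-coding genes scanned, which is 0.252%. The commonest form, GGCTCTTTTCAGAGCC, was in 26 of the 44. The lines below show it with its flanking bases, from the GENCODE M21 transcripts, in genes the results turn on. Capitals mark the stem-loop.
Hist1h1c: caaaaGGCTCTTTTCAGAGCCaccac
Hist3h2a: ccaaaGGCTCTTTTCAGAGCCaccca
Hist1h1e: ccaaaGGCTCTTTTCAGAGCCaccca
Hist1h3d: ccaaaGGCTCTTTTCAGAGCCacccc
Hist2h4: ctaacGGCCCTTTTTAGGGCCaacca
H2afx: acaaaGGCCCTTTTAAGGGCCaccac
In none of these 6 does the annotated transcript end at the stem-loop. It runs on for 840 bases in Hist1h1c, 1643 in Hist3h2a, 1153 in Hist1h1e, 752 in Hist1h3d, 1257 in Hist2h4 and 822 in H2afx, the last being a histone gene outside the clusters. No match was found in the annotated transcript of Hist1h2bc, which says only that these letters are not in it.

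The libraries held 69178212 to 71595766 counts, and 16414 genes passed the filter on low counts. In both groups the library numbered 1 stood apart. Over log2 CPM (counts divided by the TMM-scaled library size in megareads) it correlated at 0.977 to 0.990 with the others of its group, against 0.995 between CTM replicates 2 and 3 and 0.996 between 4T1 replicates 2 and 3. Even replicates 2 and 3 differed by more than counting error, with a chi-square per degree of freedom of at least 12.0. Pairs with the library numbered 1 had 89.0 to 253. Each library was kept as 1 replicate, although separately amplified libraries of the same RNA could also differ by more than counting error. Epithelial markers summed to 1648–1759 CPM in CTM and 1828–2120 CPM in 4T1 cells, almost all of it keratin mRNA, while Epcam stayed at or below 0.669 CPM in every library. Platelet markers summed to 8.13–11.5 CPM in CTM and 3.39–5.35 CPM in 4T1 cells, with Gp6 and Tubb1 at 0. Of the 4 platelet genes tested, Itga2b was 2.78-fold and Gp1ba 6.27-fold higher in CTM, with edgeR adjusted p of 0.00245 and 0.0127. The other tested platelet genes, Pf4 and Ppbp, had negative log2 fold changes of -0.90 and -0.15 and did not pass. Leukocyte markers summed to 30.9–38.2 CPM in CTM and 28.2–85.6 CPM in 4T1 cells, with Ly6g and Ncr1 at 0. Hepatocyte markers summed to 183–520 CPM in CTM and 567–609 CPM in 4T1 cells, and the part of other cells in the histone values was not tested.

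Clustered histone mRNA was a small part of every library and was led by a single linker histone gene, Hist1h1c. All 67 genes together took 0.0425%, 0.0190% and 0.0184% of the counts in CTM, against 0.0190%, 0.0102% and 0.0109% in 4T1 cells. Their summed CPM was 447, 194 and 187 in CTM and 186, 98.1 and 105 in 4T1 cells. Hist1h1c alone gave 60.2% to 73.9% of the clustered histone counts in CTM and 35.4% to 57.7% in 4T1 cells. Without it, the summed level was 116, 75.1 and 74.3 CPM in CTM, against 78.8, 63.4 and 67.7 CPM in 4T1 cells. The groups did not overlap in the sum with Hist1h1c, although CTM replicate 3 and 4T1 replicate 1 were nearly equal, and they did overlap without it.

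The histone types did not move together. Summed H1 averaged 191 ± 125 CPM in CTM and 63.9 ± 42.4 CPM in 4T1 cells (SD, n = 3 each), a ratio of means of 2.99. On the log2 scale that ratio is 1.58, and it was 0.90 without CTM replicate 1 and 2.28 without 4T1 replicate 1. Summed H2B averaged 54.0 ± 13.5 CPM in CTM and 37.2 ± 7.01 CPM in 4T1 cells, a ratio of 1.45. The groups did not overlap in H1 or H2B, but they nearly met. CTM replicate 3 had 116 CPM of H1 and 45.9 CPM of H2B, against 113 and 45.3 CPM in 4T1 replicate 1. Summed H3 went the other way, with 2.04, 2.69 and 2.21 CPM in CTM, against 5.39, 5.33 and 6.13 CPM in 4T1 cells. That is a mean 2.43-fold lower in CTM with no overlap, and the replicate SDs were 0.337 CPM in CTM and 0.447 CPM in 4T1 cells. The closeness of the 4T1 sums hides different genes. Hist2h3c1 and Hist2h3c2 gave 1.51 and 1.17 CPM in 4T1 replicate 1. They gave 0.0969 and 0.166 CPM in 4T1 replicate 2, and 0.111 and 0.650 CPM in 4T1 replicate 3. Much of their sequence, 100% and 61.6% of 100-base windows, also occurs in another gene's transcript. Summed H2A was 29.8, 18.2 and 18.7 CPM in CTM and 16.5, 18.1 and 20.9 CPM in 4T1 cells, and summed H4 was 9.51, 4.30 and 4.16 CPM in CTM and 6.22, 4.26 and 3.81 CPM in 4T1 cells. Both of these overlapped between the groups. No test was run on sums over genes. In bulk RNA, fewer cells that express a gene and less of its RNA per cell cannot be told apart.

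**Figure D1:**
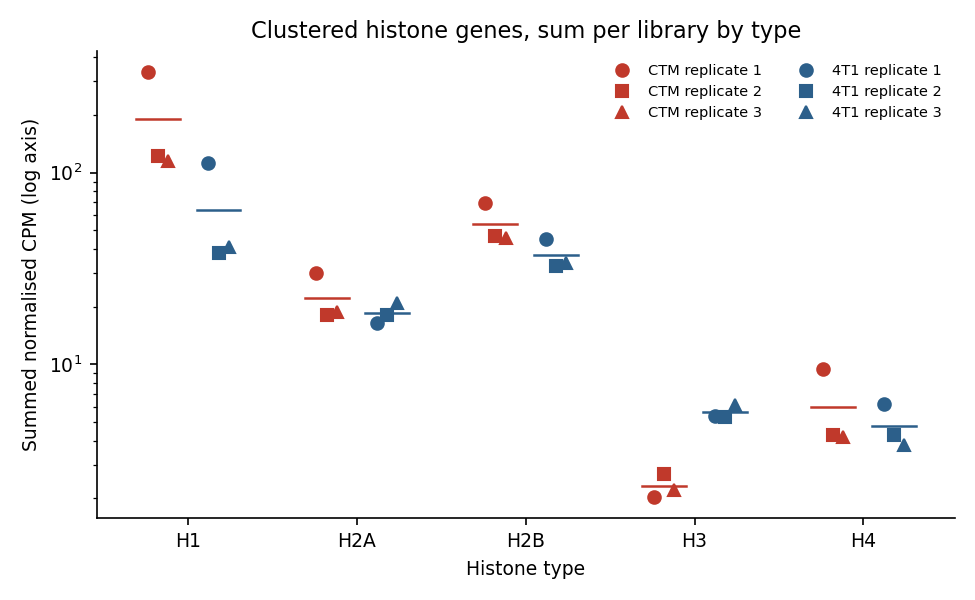
Summed normalised CPM (log axis) of the clustered histone genes by histone type, with CTM libraries in red left of 4T1 libraries in blue, marker shape for the replicate and a line at each group mean. H3 is the only type in which every CTM value, 2.04 to 2.69, lies below every 4T1 value, 5.33 to 6.13, and the library numbered 1 is the highest of its group in H1, H2B and H4.

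Gene by gene, 48 of the 67 passed the filter on low counts and were tested with edgeR's quasi-likelihood test over all 16414 genes. Of these 48, 3 passed at an adjusted p below 0.05 as higher in CTM, which is 6.25% of them, against 14.2% of all genes tested. Another 4 passed as lower, 8.33%, against 13.7% of all genes tested. Both shares lie below those of all genes tested, and 41 of the 48 did not pass. Their median log2 fold change (CTM over 4T1) was -0.39, with 16 positive and 32 negative, against -0.02 over all genes tested. By type the median was 0.43 for the 4 H1 genes tested, -0.55 for 14 H2A, 0.20 for 12 H2B, -1.11 for 9 H3 and -0.15 for 9 H4.

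**Figure D2:**
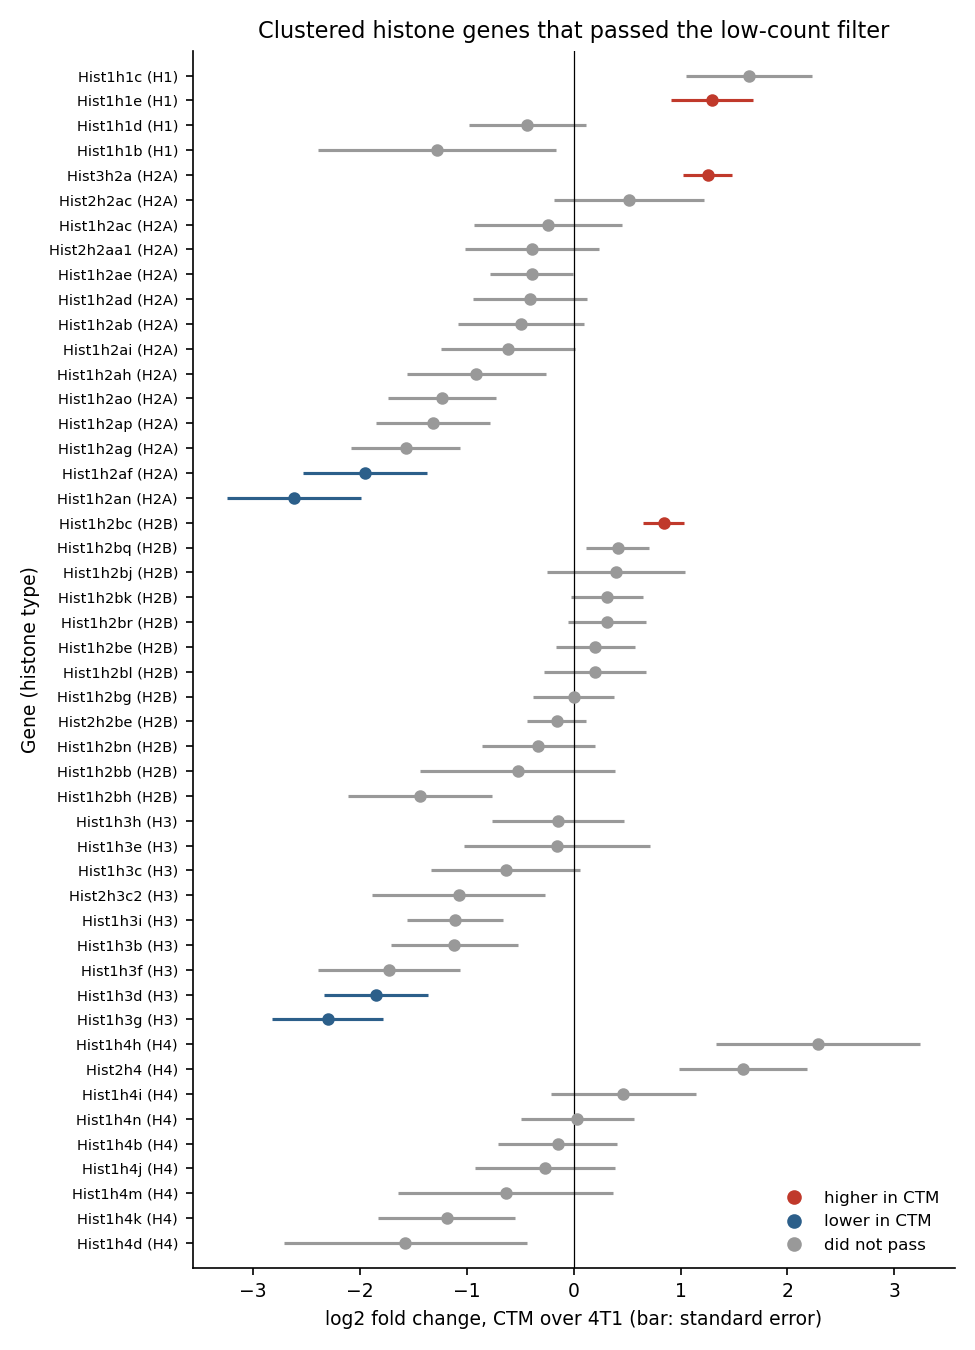
Log2 fold change of CTM over 4T1 with its standard error from the edgeR fit for the 48 clustered histone genes tested, grouped by type, red where higher in CTM, blue where lower and grey where the test was not passed. All 9 H3 genes lie left of 0, as do 12 of 14 H2A genes, while 8 of 12 H2B genes lie right of it, counting Hist1h2bg at 0.0009, which turns negative with library totals alone.

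The 3 genes that rose in CTM encode 3 different histones, H2A, H2B and H1. Hist3h2a, the H2A gene of the Hist3 cluster, had 21.1, 12.7 and 12.5 CPM in CTM and 6.07, 6.71 and 6.68 CPM in 4T1 cells. Every CTM library lay above every 4T1 library, and the means of 15.5 ± 4.90 CPM in CTM and 6.49 ± 0.362 CPM in 4T1 cells (SD, n = 3 each) differed 2.38-fold, a log2 fold change of 1.25 ± 0.23 (SE) with an edgeR adjusted p of 0.00815. Hist1h2bc, which encodes an H2B, had 47.1, 31.7 and 32.1 CPM in CTM and 24.0, 19.0 and 19.0 CPM in 4T1 cells. It was 1.79-fold higher, with a log2 fold change of 0.84 ± 0.19 and an edgeR adjusted p of 0.0176, and the groups did not overlap. Hist1h1e, a linker histone gene, had 2.01, 2.20 and 2.08 CPM in CTM and 0.445, 1.04 and 1.08 CPM in 4T1 cells. It was 2.45-fold higher, with a log2 fold change of 1.29 ± 0.38 and an edgeR adjusted p of 0.0426. Its annotated exons overlap those of Hist1h2be and a pseudogene on the same strand, and those of Hist3h2a overlap Trim17, so reads in the overlaps could have been assigned to either gene.

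Within the linker histones, Hist1h1c had the highest level of all 67 genes per kilobase of exon, 120 CPM per kb in CTM and 38.5 CPM per kb in 4T1 cells, and did not pass the test. It had 330, 119 and 112 CPM in CTM, against 107, 34.7 and 37.8 CPM in 4T1 cells. Its lowest CTM library was only just above the highest 4T1 library, and in both groups the library numbered 1 was the highest. The means of 187 ± 124 CPM in CTM and 60.0 ± 41.1 CPM in 4T1 cells (SD, n = 3 each) differed 3.12-fold, with a log2 fold change of 1.64 ± 0.59 and an edgeR adjusted p of 0.0772. With 0.1 CPM added to each value, the log2 difference was 1.62 between the libraries numbered 1. It was 1.67 between the means of the libraries numbered 2 and 3. Leaving out 1 library at a time gave an edgeR adjusted p of 0.0128 without 4T1 replicate 1, where the log2 fold change was 2.37, and 0.0928 to 0.249 in the other 5 fits, where it was lowest without CTM replicate 1 at 0.96. Without both libraries numbered 1 the edgeR adjusted p was 2.49e-06, a fit that rests on the closely alike replicates 2 and 3 of each group. With the mean of libraries 2 and 3 taken as 1 sample beside the library numbered 1, it was 0.193. Hist1h1d had 2.99, 1.29 and 1.09 CPM in CTM and 4.14, 1.59 and 1.52 CPM in 4T1 cells. Hist1h1b had 0.543, 0 and 0.175 CPM in CTM and 0.764, 0.650 and 0.332 CPM in 4T1 cells. Both encode linker histones too, and in both the groups overlapped. Apart from Hist1h1c, summed H1 was 4.13 ± 1.23 CPM in CTM and 3.89 ± 1.32 CPM in 4T1 cells (SD, n = 3 each).

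**Figure D3:**
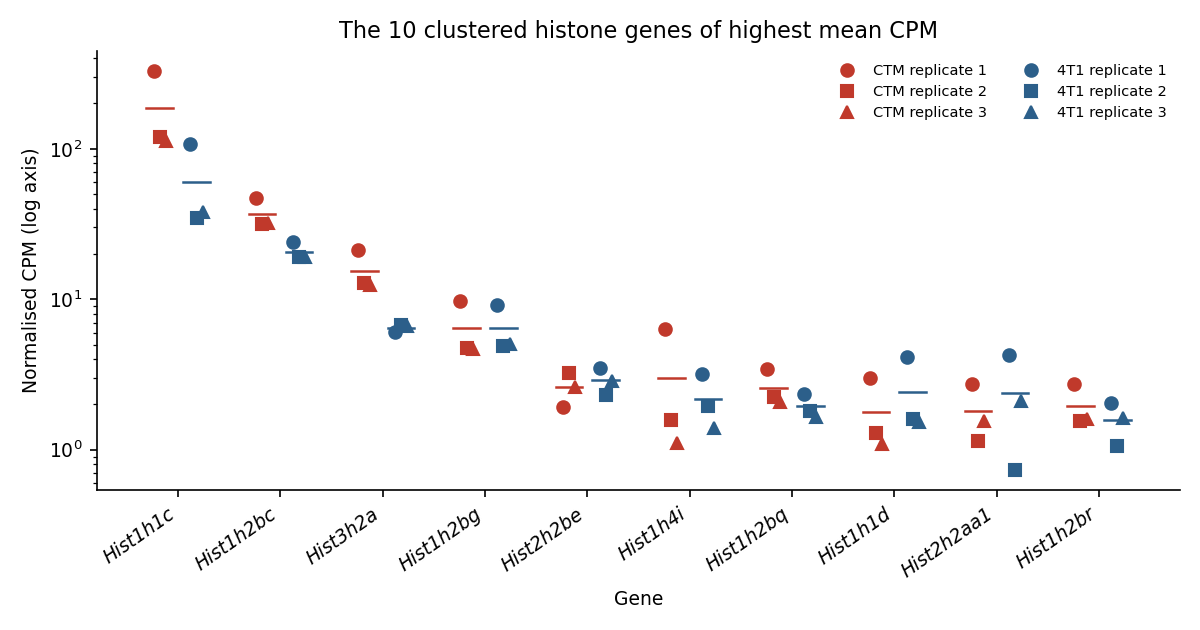
Normalised CPM (log axis) of the 10 clustered histone genes with the highest mean over 6 libraries, with CTM in red left of 4T1 in blue, marker shape for the replicate and a line at each group mean. Hist1h1c, Hist1h2bc and Hist3h2a show no overlap between the groups, with Hist1h1c at 112 to 330 CPM in CTM and 34.7 to 107 CPM in 4T1 cells, and the other 7 overlap.

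Among the H2A genes, 2 fell in CTM. Hist1h2af had 0.176, 0.488 and 0.524 CPM in CTM, against 0.723, 2.20 and 1.69 CPM in 4T1 cells. It was 3.87-fold lower, with a log2 fold change of -1.95 ± 0.58 and an edgeR adjusted p of 0.0432. Hist1h2an had only 2, 5 and 3 counts in CTM, against 17, 29 and 21 counts in 4T1 cells, and its log2 fold change was -2.62 ± 0.62 with an edgeR adjusted p of 0.0206. The groups did not overlap in either gene. Both coding sequences are close to those of other H2A genes, and 65.3% of the 100-base windows of Hist1h2af and 83.3% of those of Hist1h2an also occur in another gene's transcript, so their counts are uncertain. Hist1h2af, Hist1h2an and Hist3h2a each also overlap an annotated miRNA on the other strand, which unstranded counts would not separate. The H2A sum without Hist3h2a was 8.69, 5.42 and 6.17 CPM in CTM, against 10.4, 11.4 and 14.2 CPM in 4T1 cells, 1.77-fold lower with no overlap. That split was chosen after the values were seen.

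The other 11 H2A genes tested did not pass, with edgeR adjusted p from 0.0584 to 0.826. They are Hist1h2ab, Hist1h2ac, Hist1h2ad, Hist1h2ae, Hist1h2ag, Hist1h2ah, Hist1h2ai, Hist1h2ao, Hist1h2ap, Hist2h2aa1 and Hist2h2ac. Their group means were 0.181 to 1.81 CPM in CTM and 0.143 to 2.37 CPM in 4T1 cells, with log2 fold changes from -1.57 to 0.51. Hist1h2ag, with the smallest p of them, had 0.426, 0.369 and 0.218 CPM in CTM and 0.514, 1.04 and 1.47 CPM in 4T1 cells. Hist2h2aa1, the highest of the 11 per kilobase of exon, had 2.74, 1.14 and 1.54 CPM in CTM and 4.27, 0.733 and 2.10 CPM in 4T1 cells. The groups did not overlap in Hist1h2ag and did so in Hist2h2aa1.

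Of the H2B genes, 11 of the 12 tested did not pass, and Hist1h2bc made up most of the H2B signal. Without it, summed H2B was 17.0 ± 4.73 CPM in CTM and 16.6 ± 4.15 CPM in 4T1 cells (SD, n = 3 each), a ratio of 1.02. Hist1h2bg, the next H2B gene per kilobase of exon, had 9.74, 4.74 and 4.70 CPM in CTM and 9.20, 4.91 and 5.07 CPM in 4T1 cells. Hist2h2be had 1.94, 3.22 and 2.62 CPM in CTM and 3.49, 2.32 and 2.86 CPM in 4T1 cells. The groups overlapped in both, as they did in Hist1h2bb, Hist1h2be, Hist1h2bh, Hist1h2bj, Hist1h2bk, Hist1h2bl, Hist1h2bn, Hist1h2bq and Hist1h2br. Over these 11 genes the group means were 0.161 to 6.40 CPM in CTM and 0.203 to 6.39 CPM in 4T1 cells, and log2 fold changes ran from -1.44 to 0.41. Hist1h2bq and Hist1h2br share 100% and 99.8% of their windows with other transcripts and cannot be told apart from them by counts.

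All 9 H3 genes tested had a negative log2 fold change in the fit to all libraries and 2 of them fell. Between the libraries numbered 1 alone, Hist1h3c, Hist1h3e and Hist1h3h were higher in CTM, with log2 differences of 1.43, 0.66 and 0.57. These were taken after adding 0.1 CPM to each value, which shrinks differences at such low levels. The levels were 0.616, 0.323 and 0.338 CPM in CTM replicate 1, against 0.167, 0.167 and 0.195 CPM in 4T1 replicate 1. Hist1h3e, Hist1h3h and Hist2h3c2, none of which passed, turned positive in some of the alternative fits. Hist1h3g had 0.132, 0.118 and 0.116 CPM in CTM, against 0.375, 0.913 and 0.540 CPM in 4T1 cells. The means of 0.122 ± 0.00857 CPM in CTM and 0.609 ± 0.276 CPM in 4T1 cells (SD, n = 3 each) differed 4.93-fold, with a log2 fold change of -2.30 ± 0.52 and an edgeR adjusted p of 0.0171. Hist1h3d had 0.117, 0.296 and 0.247 CPM in CTM, against 0.736, 0.650 and 1.01 CPM in 4T1 cells. It was 3.61-fold lower, with a log2 fold change of -1.85 ± 0.49 and an edgeR adjusted p of 0.0291. Neither gene overlapped between the groups, but these levels rest on 8 to 20 counts per CTM library.

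The remaining H3 genes did not pass. Hist1h3f had 0.0294, 0.133 and 0.102 CPM in CTM and 0.236, 0.360 and 0.291 CPM in 4T1 cells, and Hist1h3i had 0.264, 0.429 and 0.306 CPM in CTM and 0.570, 1.02 and 0.567 CPM in 4T1 cells. The groups did not overlap in these either, with edgeR adjusted p of 0.0948 for Hist1h3f and 0.106 for Hist1h3i. In all, 4 H3 genes had every CTM value below every 4T1 value. In the 48 tested genes this was so for 7, with the reverse for 6, against 23.5% and 24.8% of all genes tested. Hist1h3b, Hist1h3c, Hist1h3e, Hist1h3h and Hist2h3c2 overlapped, and the 7 H3 genes that did not pass had group means of 0.0881 to 0.450 CPM in CTM and 0.208 to 0.720 CPM in 4T1 cells.

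No H4 gene passed the test. Hist1h4i, the highest H4 gene per kilobase of exon, had 6.31, 1.58 and 1.11 CPM in CTM and 3.18, 1.95 and 1.38 CPM in 4T1 cells, and its CTM mean rested on replicate 1. Hist2h4 had 1.03, 1.48 and 1.37 CPM in CTM, against 0.848, 0.249 and 0.194 CPM in 4T1 cells. Hist1h4h had 0.426, 0.251 and 0.291 CPM in CTM, against 0, 0.111 and 0.0830 CPM in 4T1 cells. In Hist2h4 and Hist1h4h every CTM value was above every 4T1 value, with edgeR adjusted p of 0.0908 and 0.117, and at unadjusted p these 2 were the only H4 genes below 0.05. Hist1h4b, Hist1h4d, Hist1h4j, Hist1h4k, Hist1h4m and Hist1h4n overlapped between groups. Their log2 fold changes ran from -1.58 for Hist1h4d to 0.03 for Hist1h4n.

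The 19 genes below the filter comprised 2 H1, 4 H2A, 6 H2B, 3 H3 and 4 H4 genes. Of them, 5 had no count in any library, namely Hist1h2aa, Hist2h2aa2, Hist2h2ab, Hist2h2bb and Hist2h3b. A count of 0 allows a level of up to 0.0443 CPM in a library at 3 counts, for counting error only. This limit does not apply to Hist2h2aa2, Hist2h3b and Hist2h2bb, which share 100%, 77.1% and 45.4% of their windows with other transcripts, since how shared reads were assigned is not stated. The 5 of highest mean were Hist2h3c1, Hist1h2bp, Hist1h3a, Hist1h2ak and Hist4h4. Hist2h3c1, an H3 gene, had 0.0294, 0.0296 and 0.0291 CPM in CTM and 1.51, 0.0969 and 0.111 CPM in 4T1 cells, so that its 4T1 mean rested on replicate 1. Hist4h4, the H4 gene of the Hist4 cluster, had 0, 0 and 0.0146 CPM in CTM and 0.486, 0.0830 and 0.111 CPM in 4T1 cells. Hist1h3a had 0, 0 and 0.0437 CPM in CTM and 0.0139, 0.332 and 0.332 CPM in 4T1 cells. Hist1h2bp stayed at 0.0873 to 0.103 CPM in CTM and 0.125 to 0.180 CPM in 4T1 cells, and Hist1h2ak, with 0, 0 and 0.276 CPM in CTM, had 0.0556, 0.332 and 0.0554 CPM in 4T1 cells.

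How far single libraries decided the calls was examined by leaving out each in turn. Hist3h2a passed in all 6 fits, with edgeR adjusted p from 0.00861 to 0.0322. Hist1h2bc lost the call without 4T1 replicate 2 (0.0661) and without 4T1 replicate 3 (0.0635). Hist1h3g kept it without CTM replicate 1 and without 4T1 replicate 1, and Hist1h1e, Hist1h2af, Hist1h2an and Hist1h3d kept it only without 4T1 replicate 1. Without both libraries numbered 1, all 7 genes passed, and 5 genes in all were higher and 9 lower, against 25.6% and 26.2% of all genes tested in that fit. The genes added were Hist1h1c, Hist2h4, Hist1h2ag, Hist1h2ao, Hist1h2ap, Hist1h3a and Hist1h3c. With the mean of libraries 2 and 3 taken as 1 sample, none of the 7 genes passed. No called gene changed direction under any alternative that was run.

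The level of a gene was set beside how its transcript is annotated to end. In 22 genes the transcript ended within 100 bases of the stem-loop, in 22 it ran further past it, and in 23 no stem-loop was matched. Genes whose transcript ran past the stem-loop summed to 221 CPM in CTM and 85.7 CPM in 4T1 cells, those with none matched to 47.1 CPM in CTM and 33.3 CPM in 4T1 cells, and those ending at the stem-loop to 7.47 CPM in CTM and 10.9 CPM in 4T1 cells. Hist1h1c, Hist3h2a and Hist1h1e belong to the first of these and Hist1h2bc to the second, and of the 10 genes with the highest mean CPM only Hist2h2aa1 ends at the stem-loop. The sums follow a few genes rather than the classes as a whole. Per kilobase of exon, the median level of genes that run past was 0.221 CPM per kb in CTM and 0.295 CPM per kb in 4T1 cells. For genes that end at it the median was higher, 0.428 CPM per kb in CTM and 0.568 CPM per kb in 4T1 cells. Exon length enters this measure, and its median was 1255 bases for genes that run past, against 483.5 for genes that end at it. At a given CPM a longer annotated tail lowers the level per kilobase, so these medians do not compare the classes at equal length. None of the 16 tested genes that end at the stem-loop passed the test, while 2 of 17 that run past it were higher and 1 lower, and 1 of 15 with none matched was higher and 3 lower. Over all genes tested 14.2% were higher and 13.7% lower. The transcript end that was sequenced is not in the table, so these classes rest on annotation. Median exon length was only 411 bases where none matched, with 393 for Hist1h2an and 399 for Hist1h2af, both called lower. Such short annotated transcripts may stop before a stem-loop, so genes with none matched may still end at one.

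**Figure D4:**
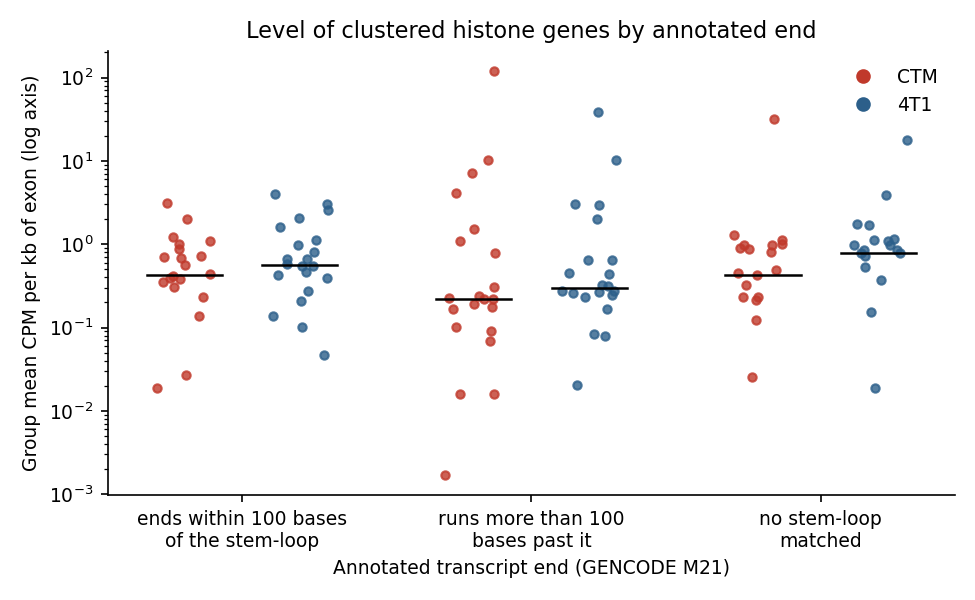
Group mean level per kilobase of exon (log axis, CPM per kb) of each clustered histone gene by its annotated transcript end, CTM in red left of 4T1 in blue, with a line at the median over all genes of the class, and genes at 0 not drawn. The median is lowest for genes that run past the stem-loop, 0.221 in CTM and 0.295 in 4T1 cells, and these also have the longest exons. Median exon length is 1255 bases in that class, 483.5 where the transcript ends at the stem-loop and 411 where none matched. The highest single value, Hist1h1c at 120 CPM per kb in CTM, is in the class that runs past.

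A polyadenylation signal, AATAAA, was in the last 40 bases of an annotated transcript of 14 genes, among them Hist1h1c, Hist3h2a and Hist2h4. Of the 8 of these that were tested, 1 was higher and none lower, with a median log2 fold change of 0.36. Of the 40 others tested, 2 were higher and 4 lower, with a median of -0.51. These counts too are read against 14.2% higher and 13.7% lower over all genes tested. The difference between these groups of genes was not tested.

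H2A and H2B genes often lie head to head and are transcribed in opposite directions from a shared promoter. There were 12 such pairs, with annotated starts 176 to 306 bases apart in M21. In 8 pairs both genes were tested, and in 7 of them the H2B gene had the larger log2 fold change. Hist1h2ac and Hist1h2bc, with starts 251 bases apart, had the largest gap in level among these 8 pairs. Per kilobase of exon, Hist1h2ac averaged 0.219 CPM per kb in CTM and 0.259 CPM per kb in 4T1 cells, while Hist1h2bc averaged 32.0 CPM per kb in CTM and 17.8 CPM per kb in 4T1 cells. Hist1h2ac had a log2 fold change of -0.24 and did not pass, while its partner rose. The next largest gap was between Hist1h2ae, at 1.54 CPM per kb in CTM and 2.02 CPM per kb in 4T1 cells, and Hist1h2bg, at 10.3 CPM per kb in both groups. Hist1h2ap and Hist1h2br had log2 fold changes of -1.32 and 0.31, neither past the test. The difference within pairs was not tested, and many of these genes share windows with other copies.

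Promoter sequence was at hand for 61 of the 67 genes in RefSeq (GRCm38.p6), and the 250 bases before the annotated start were searched on both strands. The octamer ATTTGCAT, a known element of H2B promoters, was in 14 of 61, or 22.95%, against 1.81% of 27025 genes. All matches were in H2A (7 of 17) and H2B (7 of 16) genes. In head-to-head pairs, with starts 176 to 306 bases apart, the 250-base windows of the paired genes overlap. A match there can be counted for both genes, and Hist1h2ae and Hist1h2bg, for example, both had an octamer. CCAAT was in 50 of 61, or 82.0%, against 37.5% of all genes, in every H1, H2A and H2B promoter but in only 3 of 12 for H4. TATAAA was in 29 of 61, or 47.5%, against 14.3% of all genes. These are letter matches and not sites shown to be bound. The lines below show promoters of 2 genes that rose or led in level, of the Hist1h2ac start that faces Hist1h2bc and of an H3 gene that fell, with matches to the 3 motifs in capitals on either strand.
Hist1h1c, chr13:23738557-23738806, plus strand: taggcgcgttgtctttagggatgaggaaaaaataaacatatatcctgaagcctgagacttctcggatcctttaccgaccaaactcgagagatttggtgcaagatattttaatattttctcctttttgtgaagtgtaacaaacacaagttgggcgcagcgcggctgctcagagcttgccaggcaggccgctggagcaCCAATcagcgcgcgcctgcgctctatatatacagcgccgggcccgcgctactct
Hist3h2a, chr11:58954435-58954684, plus strand: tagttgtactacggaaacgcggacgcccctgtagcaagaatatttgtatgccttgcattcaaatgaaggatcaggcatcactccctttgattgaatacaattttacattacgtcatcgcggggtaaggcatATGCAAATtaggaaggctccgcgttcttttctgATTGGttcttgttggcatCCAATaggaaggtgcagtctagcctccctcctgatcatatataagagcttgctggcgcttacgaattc
Hist1h2ac, chr13:23683960-23684209, minus strand: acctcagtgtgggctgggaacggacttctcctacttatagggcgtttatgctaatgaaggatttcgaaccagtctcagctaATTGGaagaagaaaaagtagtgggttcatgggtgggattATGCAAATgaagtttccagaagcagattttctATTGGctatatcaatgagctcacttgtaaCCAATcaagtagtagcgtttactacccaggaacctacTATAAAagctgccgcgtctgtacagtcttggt
Hist1h3g, chr13:23535168-23535417, plus strand: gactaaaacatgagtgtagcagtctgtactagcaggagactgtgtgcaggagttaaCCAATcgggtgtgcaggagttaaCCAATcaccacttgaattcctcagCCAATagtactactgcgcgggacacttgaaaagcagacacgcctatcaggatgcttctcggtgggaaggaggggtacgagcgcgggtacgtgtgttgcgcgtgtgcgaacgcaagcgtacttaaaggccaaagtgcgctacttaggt
Hist1h1c and Hist1h3g differ in the number of matches, 1 against 3, all of them CCAAT, and Hist3h2a and Hist1h2ac each hold an octamer.

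The variant histones, whose genes lie outside the clusters and make polyadenylated mRNA or both forms, moved downward or did not pass. Of 10 of 11 that were tested, 5 fell, 50% against 13.7% of all genes tested, and none rose, against 14.2%. The median log2 fold change was -0.28, against -0.02 over all genes. H2afx, which encodes the H2A variant phosphorylated at DNA breaks and carries the stem-loop shown above, had 39.98, 36.3 and 38.0 CPM in CTM, against 109, 188 and 193 CPM in 4T1 cells. The means of 38.1 ± 1.86 CPM in CTM and 163 ± 47.4 CPM in 4T1 cells (SD, n = 3 each) differed 4.29-fold, with an edgeR adjusted p of 0.00125. H2afz and H2afv, the genes of H2A.Z, were 2.19-fold and 1.57-fold lower, with edgeR adjusted p of 0.00231 and 0.00295. Cenpa, the centromeric H3 variant, was 1.83-fold lower (edgeR adjusted p = 0.0224), and H2afy, which encodes macroH2A, was 1.29-fold lower (edgeR adjusted p = 0.0192). The groups did not overlap in any of these 5.

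The other variants did not pass. H1f0, the linker histone of non-dividing cells, had 3771, 2086 and 2192 CPM in CTM and 1750, 3339 and 3271 CPM in 4T1 cells. Its groups overlapped, with replicate 1 the highest of the CTM libraries and the lowest of the 4T1 libraries. H3f3b, an H3.3 gene, had 1701, 1250 and 1210 CPM in CTM and 661, 1080 and 1072 CPM in 4T1 cells, with an edgeR adjusted p of 0.0963. H3f3a, the other H3.3 gene, averaged 218 ± 3.81 CPM in CTM and 251 ± 8.29 CPM in 4T1 cells (SD, n = 3 each), with an edgeR adjusted p of 0.0818. H2afj and H2afy2 overlapped between groups, and H1fx had no count in any library.

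Genes that serve histone mRNA production were mixed. Of 15 genes of histone transcription, 3′ end formation and decay, 1 rose, 6.67% against 14.2% of all genes tested, and 5 fell, 33.3% against 13.7%. The median log2 fold change was -0.18 against -0.02 over all genes. Slbp, which encodes the stem-loop binding protein, averaged 61.4 ± 5.71 CPM in CTM and 107 ± 27.6 CPM in 4T1 cells (SD, n = 3 each), 1.74-fold lower with an edgeR adjusted p of 0.0232. Eri1, a nuclease that trims the histone mRNA end, was 1.71-fold lower, and Casp8ap2, a component of the histone locus body, was 1.64-fold lower, with edgeR adjusted p of 0.00121 and 0.0027. Zfp473 and Cpsf2, which act in 3′ end processing, were 1.86-fold and 1.39-fold lower, with edgeR adjusted p of 0.0121 and 0.0105. Sympk, the scaffold of the cleavage complex, was 1.29-fold higher (edgeR adjusted p = 0.0340). Npat, the transcriptional coactivator of the clustered genes, averaged 48.8 ± 7.44 CPM in CTM and 44.1 ± 1.62 CPM in 4T1 cells (SD, n = 3 each) and did not pass.

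Among 22 histone chaperones, 11 fell, 50% against 13.7% of all genes tested, and 3 rose, 13.6% against 14.2%, which is near the background. The median log2 fold change was -0.43. The 3 smallest p-values belonged to genes that handle new H3 and H4 at replication. Asf1b, a carrier of H3 and H4, had 20.6, 20.8 and 24.6 CPM in CTM and 73.3, 81.2 and 88.5 CPM in 4T1 cells, 3.69-fold lower with an edgeR adjusted p of 0.000366. Chaf1a and Chaf1b, subunits of the chromatin assembly factor CAF-1, were 2.41-fold and 2.26-fold lower, with edgeR adjusted p of 0.000719 and 0.00121. Hira, which deposits H3.3, was 1.58-fold lower (edgeR adjusted p = 0.00365). The 3 that rose were Ubn1, a partner of Hira, at 1.403-fold, Daxx, which deposits H3.3 with Atrx, at 1.33-fold, and the kinase gene Tlk2 at 1.19-fold, with edgeR adjusted p of 0.0130, 0.0248 and 0.0456.

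Genes expressed at the transition into S phase were set beside the histones because clustered histone transcription belongs to the same phase. Of 17 such genes, 14 fell in CTM, 82.4% against 13.7% of all genes tested, and none rose, with a median log2 fold change of -1.33. Tk1, thymidine kinase, averaged 34.6 ± 5.06 CPM in CTM and 142 ± 25.1 CPM in 4T1 cells (SD, n = 3 each), 4.11-fold lower with an edgeR adjusted p of 0.00072. E2f7 and E2f2, transcription factors of the cell cycle, were 3.35-fold and 2.52-fold lower, with edgeR adjusted p of 0.00125 and 0.00229, and the cyclin gene Ccne1 was 3.33-fold lower (edgeR adjusted p = 0.0014). E2f3, Ccne2 and Cdc25a did not pass. The H3 genes and most H2A genes had negative log2 fold changes, as the S phase genes did, while Hist1h1c, Hist1h2bc and Hist3h2a, which carry most of the clustered histone counts, had positive ones. Whether these directions are related was not tested.

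**Figure D5:**
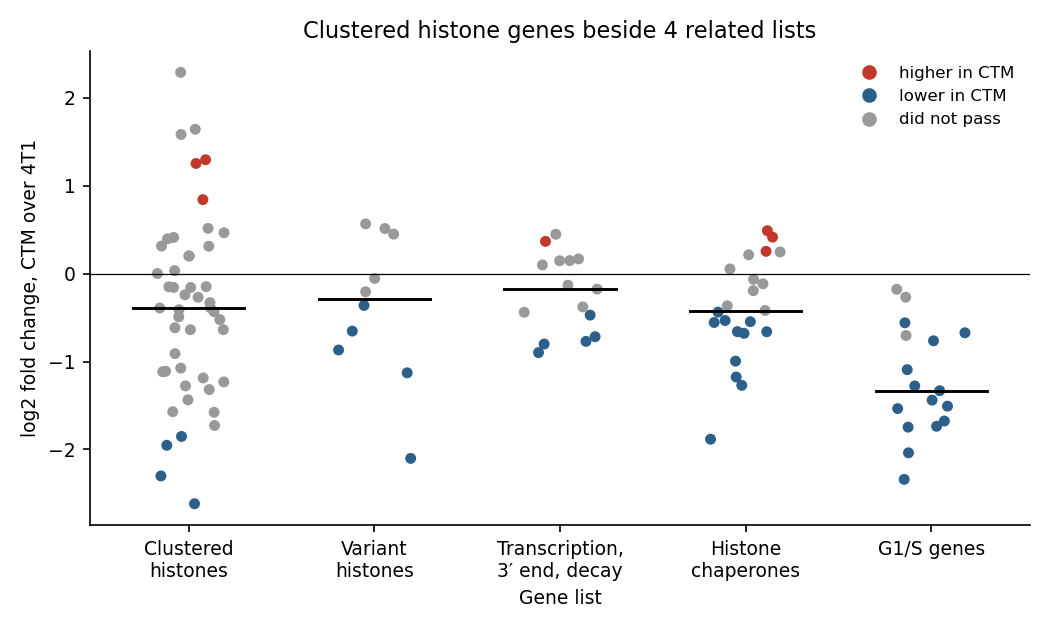
Log2 fold change of CTM over 4T1 for each gene tested, in the clustered histone genes and 4 related lists, red where higher in CTM, blue where lower and grey where the test was not passed, with a line at each median. Clustered histone genes spread from -2.62 to 2.29 around a median of -0.39, while all 17 S phase genes lie below 0 with a median of -1.33.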

How the data were processed

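RNA of CTM and of 4T1 cells, 3 libraries each, was compared, placed in groups by their descriptions. The deposited table holds the authors' estimated counts per Ensembl gene, in whole numbers that were not rounded further. Per the labels' protocols, a SMART-Seq kit for ultra low input was used to amplify the RNA. HISAT2 2.0.4, Bowtie 0.12.2, edgeR and the build mm8 are named with no role or order, per the submitters' processing notes; the counting tool, the annotation and the strand setting are not stated there. Multiples of 4 are over-represented among low counts (956 genes had a count of 4 in 4T1 replicate 1, 391 of 3 and 320 of 5), so counting error may be larger than the totals imply.

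Symbols were found for 52073 identifiers and not for 4618. Low counts were removed with filterByExpr and library sizes scaled by TMM (factors 0.952 to 1.04). The quasi-likelihood test of edgeR 4.0.16 (R 4.3.3) was fitted to all 6 libraries over 16414 genes, two-sided and without a block, p adjusted by Benjamini-Hochberg and called below 0.05. Standard errors are the log2 fold change over the square root of F. The biological coefficient of variation was 28.1%. CPM per kb uses M21 exon length. Stem-loops were searched in M21 transcripts and motifs in RefSeq promoters, and no gene coordinate is carried over from the mm8 files. On counts simulated from these libraries over 16414 genes the test recovered 6 of 50 genes changed 1.5-fold, 28 of 50 at 2-fold, 37 of 50 at 4-fold and 47 of 50 at 8-fold, with 10 false calls.

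The genes and lists were chosen with earlier results of these data known, and sums without a leading gene after its values were seen. Every tested clustered histone gene is named with its values or in a range, the 5 of highest mean among those below the filter, and up to 4 genes of smallest p per list. Alternatives were other scalings, DESeq2 1.42.0, limma 3.58.1 (voom), other filters, a replicate block, a minimum fold, division of the counts by 4 and left-out or averaged libraries. Erythroid markers are not reported here.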

Additional observations from a re-analysis of the deposited data

Results flagged for a closer look

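Hist1h2al, a row outside the 67 genes because it is annotated as a processed pseudogene, held counts that set the groups apart, and it was picked out because no comparison above uses it. It had 190, 94 and 99 counts in CTM, against 90, 23 and 4 counts in 4T1 cells, and its normalised level was higher in every CTM library than in every 4T1 library. Its log2 fold change was 1.79 with an edgeR adjusted p of 0.188, which did not pass.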

How the results depend on the processing

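Against 3 clustered histone genes higher in CTM and 4 lower, limma voom with quality weights gave 6 and 12, leaving out both libraries numbered 1 gave 5 and 9, and taking the mean of libraries 2 and 3 as 1 sample gave 0 in both directions. Lower genes numbered 0 with a filter of 5 CPM in 3 libraries, which left 4 of the genes to test, and 2 with the counts divided by 4, which left 21. Leaving out 1 library at a time gave 1 to 5 higher and 0 to 8 lower. DESeq2 gave 4 and 4. Library totals alone gave 2 higher and 5 lower, with a median log2 fold change over all genes of -0.11. Over all genes, against 2323 higher and 2252 lower, voom gave 4514 and 4628, a 2-fold minimum 738 and 832, the fit without libraries numbered 1 gave 4239 and 4340, the mean of libraries 2 and 3 gave 276 and 200, no filter gave 1974 and 1655, and leaving out 1 library gave 1334–3323 higher and 1208–3326 lower.

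Variant histones called higher numbered 1 with DESeq2, 2 with voom and 1 without libraries numbered 1, against 0, and those called lower 2 with a 2-fold minimum, 1 with the mean of libraries 2 and 3 and 3 to 6 with 1 library left out, against 5. Genes of transcription, 3′ end and decay called higher numbered 0 with library totals, no filter, a 2-fold minimum or the mean of libraries 2 and 3, 2 with voom or without libraries numbered 1, and 0 to 2 with 1 library left out, against 1. Those called lower numbered 0 with a 2-fold minimum or the mean of libraries 2 and 3, 8 without libraries numbered 1, and 2 to 7 with 1 library left out, against 5. Chaperones called higher numbered 0 with a 2-fold minimum or the mean of libraries 2 and 3 and 0 to 3 with 1 library left out, against 3, and those called lower 3 under each of the first pair and 7 to 13 with 1 library left out, against 11. S phase genes called lower numbered 3 with the mean of libraries 2 and 3, against 14. Where the construction does not show it (fewer genes or samples), the cause was not tested.

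The labels do not say that a replicate number pairs a CTM with a 4T1 library, and correlations could not decide it. Deviations of same-numbered libraries from their group means correlated at 0.12, 0.07 and 0.04, and CTM replicate 2 correlated best with 4T1 replicate 3 (0.13). The libraries numbered 1 each correlated negatively with replicates 2 and 3 of the other group, at -0.12 to -0.05. Within a group of 3 such deviations depend on each other, so a batch shared by number was not excluded. With a replicate block, 3 clustered histone genes were higher (Hist3h2a, Hist1h2bc and, added by the block, Hist1h1c) and 1 lower (Hist1h2af), and 2232 and 2065 of all genes. Hist1h1c had an adjusted p of 0.00322 in that edgeR fit, and Hist1h1e, Hist1h2an, Hist1h3d and Hist1h3g had 0.0502 to 0.0598. None of the 7 called genes changed direction under any alternative in which it was tested, and of the 41 not called, 13 changed direction and 11 passed under at least 1.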
